A study of Mus musculus with 9 samples.

Results

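Divergent promoter pairs are neighbouring genes that start close together and are transcribed away from each other. They were taken here from a table of mouse promoter windows by position alone. A window of a plus-strand gene reached 1000 bp to either side of its start, and a window of a minus-strand gene reached 1000 bp upstream and 100 bp into the gene. A pair was any plus-strand start 0 to 1000 bp to the right of a minus-strand start on the same chromosome. The rule gave 726 pairs, made of 725 plus and 725 minus windows, which is 1450 (14.1%) of the 10271 windows in the table. The other 8821 windows are called unpaired, and 2 windows belonged to more than 1 pair. The 1 to 1000 bp between the starts of a pair had a median of 165 bp (quartiles 81.25 and 318.75 bp), and the pairs lay on 20 chromosomes.

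The accessibility of chromatin was measured by ATAC-seq, which maps the sites that a transposase can reach, in HPC7 cells. HPC7 is a blood progenitor line of the mouse, grown here with stem cell factor. The control cells (MIG-EV) carried an empty retroviral vector, and the compared cells (MIG-Snai1) carried the vector with FLAG-tagged wild-type Snai1, a zinc finger repressor known from epithelial to mesenchymal transition. Each group had 3 libraries, and a further 3 libraries of a mutant (MIG-mut5Snai1) were not analysed here. All 3 groups are transduced cultures of 1 parental line, and whether the 3 libraries came from 3 transductions or from 1 is not in the labels. Every level below is the authors' DiffBind concentration, the log2 of the mean normalized reads of a group in a window, and a change is the MIG-Snai1 level minus the MIG-EV level. The table gave group values and no value per library, so the errors are standard errors worked back from the authors' p-values. A window is called when the authors' adjusted p-value (FDR) is under 0.05. By that rule 29.9% of all windows were called, 19.6% higher and 10.3% lower, around a median change of 0.08 over all windows.

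A divergent pair shares a stretch of open, nucleosome-poor DNA, often a CpG island, from which transcription runs outward in both directions. Such pairs are known to be common among housekeeping genes, with genes for DNA repair and mitochondrial proteins as familiar cases. Snail family repressors bind E-box sequences through their zinc fingers and recruit histone deacetylases and the demethylase Lsd1 through an N-terminal SNAG domain.

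The DNA between the starts is printed for 11 of the named pairs below with the largest shared changes or the largest gaps, those for which it could be read, and for Psmb9 and Tap1, a textbook pair with a Snail-type E-box between its starts. It was read from the RefSeq promoter table on GRCm38.p6, whose coordinates are those of mm10, and is given on the plus strand. Where RefSeq has several starts of a gene, the stretch between the innermost ones is given. The minus gene is thus transcribed leftward from the left end, and the plus gene rightward from the right end. Capitals mark matches on either strand to the 7 motifs searched, which were the E-box CAGGTG, the ETS factor site CCGGAAG, the NRF1 site, the YY1 site AAGATGGCG, the GC box GGGCGG, the CCAAT box CCAAT and the TATA box TATAAA.
H1f10 and Gm5577, chr6:87981483-87981682, 200 bases: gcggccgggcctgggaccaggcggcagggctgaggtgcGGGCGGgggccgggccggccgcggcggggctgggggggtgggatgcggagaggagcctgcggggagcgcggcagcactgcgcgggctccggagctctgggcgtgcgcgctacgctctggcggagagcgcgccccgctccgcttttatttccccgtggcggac
Lacc1 and Ccdc122, chr14:77036618-77036771, 154 bases: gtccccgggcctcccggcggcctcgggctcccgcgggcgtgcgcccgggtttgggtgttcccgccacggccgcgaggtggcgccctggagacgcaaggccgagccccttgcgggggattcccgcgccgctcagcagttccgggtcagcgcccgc
S100a1 and S100a13, chr3:90514331-90514434, 104 bases: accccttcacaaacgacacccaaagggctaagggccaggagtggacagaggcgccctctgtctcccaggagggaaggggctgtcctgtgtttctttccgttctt
Ppp1r3d and Fam217b, chr2:178414464-178414533, 70 bases: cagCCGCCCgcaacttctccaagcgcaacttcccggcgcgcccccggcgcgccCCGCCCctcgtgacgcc
Dzip3 and Cip2a, chr16:48994143-48994187, 45 bases: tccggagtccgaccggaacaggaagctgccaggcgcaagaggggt
Slc35a5 and Atg3, chr16:45158674-45158828, 155 bases: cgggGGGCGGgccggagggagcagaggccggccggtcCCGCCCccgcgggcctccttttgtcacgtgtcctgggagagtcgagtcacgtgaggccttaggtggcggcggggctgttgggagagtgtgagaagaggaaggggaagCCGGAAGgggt
Qtrt2 and Ccdc191, chr16:43889677-43889901, 225 bases: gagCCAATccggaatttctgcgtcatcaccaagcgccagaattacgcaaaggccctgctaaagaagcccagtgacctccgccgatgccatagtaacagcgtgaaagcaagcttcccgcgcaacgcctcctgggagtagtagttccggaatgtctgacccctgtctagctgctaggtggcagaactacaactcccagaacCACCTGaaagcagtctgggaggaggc
Psmb9 and Tap1, chr17:34187331-34187555, 225 bases: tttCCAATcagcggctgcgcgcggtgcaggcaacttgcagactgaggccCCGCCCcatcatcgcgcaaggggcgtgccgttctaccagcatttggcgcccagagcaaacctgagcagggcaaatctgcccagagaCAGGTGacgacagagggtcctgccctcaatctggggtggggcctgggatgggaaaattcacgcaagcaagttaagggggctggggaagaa
Sgsh and Slc26a11, chr11:119355511-119355556, 46 bases: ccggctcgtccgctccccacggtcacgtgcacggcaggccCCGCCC
Gm12522 and Psrc1, chr3:108383742-108383803, 62 bases: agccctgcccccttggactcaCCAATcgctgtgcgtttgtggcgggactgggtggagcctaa
Vmac and Ndufa11, chr17:56717700-56717761, 62 bases: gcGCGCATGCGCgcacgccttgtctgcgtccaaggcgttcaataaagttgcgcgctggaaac
Wdhd1 and Socs4, chr14:47276858-47276919, 62 bases: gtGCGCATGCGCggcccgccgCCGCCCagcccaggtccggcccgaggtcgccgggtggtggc
The first 3 pairs rose with Snai1, the next 4 fell, Psmb9 and Tap1 rose by a smaller amount, and the last 4 are pairs in which the windows differed. None of the 7 motifs was found in the stretches of Lacc1 and S100a1, which rose, or of Dzip3, which fell. An E-box stood between Qtrt2 and Ccdc191, which fell, and between Psmb9 and Tap1, which rose. The NRF1 letters began at base 3 of the stretch in the Vmac and the Wdhd1 pair and were not found in the other printed stretches.

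The windows of a pair are not separate measurements. In 714 of the 726 pairs the starts were at most 900 bp apart, and the shorter minus window then lay wholly inside the plus window, while the other 12 pairs overlapped in part. No contained minus window had a higher level than the plus window around it, in MIG-EV (0 pairs) or in MIG-Snai1 (0 pairs). The minus window held a median of 85.9% of the plus window's signal in MIG-EV over the 714 pairs. ATAC-seq reads carry no strand, so the share of the signal that belongs to each gene of a pair could not be told apart. RefSeq starts lay within 100 bp of both window starts in 612 pairs. In 613 pairs both windows were assigned to a protein-coding gene, while 97 held a long non-coding RNA. Both windows had the name of the same gene in 4 pairs, and 15 windows were named only by lying inside a gene.

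Both windows of a pair rose in 157 pairs and both fell in 56, and in no pair were they called in opposite directions. In 43 pairs 1 window alone was called, and in 470 pairs neither was. Where any window of a pair was called, both were called the same way in 83.2% of the pairs (213 of 256). The count of opposite pairs was also 0 at an unadjusted p under 0.05, by the authors' p-values, and 17 pairs had changes of opposite sign. The median gap between the changes of a pair was 0.02 log2 (quartiles 0.01 and 0.03), 140 pairs had equal changes and 15 had a gap of 0.1 or more. Across the 726 pairs the changes had a Pearson r of 0.988 and a Spearman rho of 0.970, given as a description because the windows of a pair share most of their reads. At a stricter FDR of 0.01, which called 11.2% of all windows higher and 7.74% lower (19% together), 119 pairs were called the same way, 78 of them higher. Of the 43 pairs with 1 called window, 29 had the plus window higher, 1 the plus window lower, 6 the minus window higher and 7 the minus window lower.

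**Figure D1:**
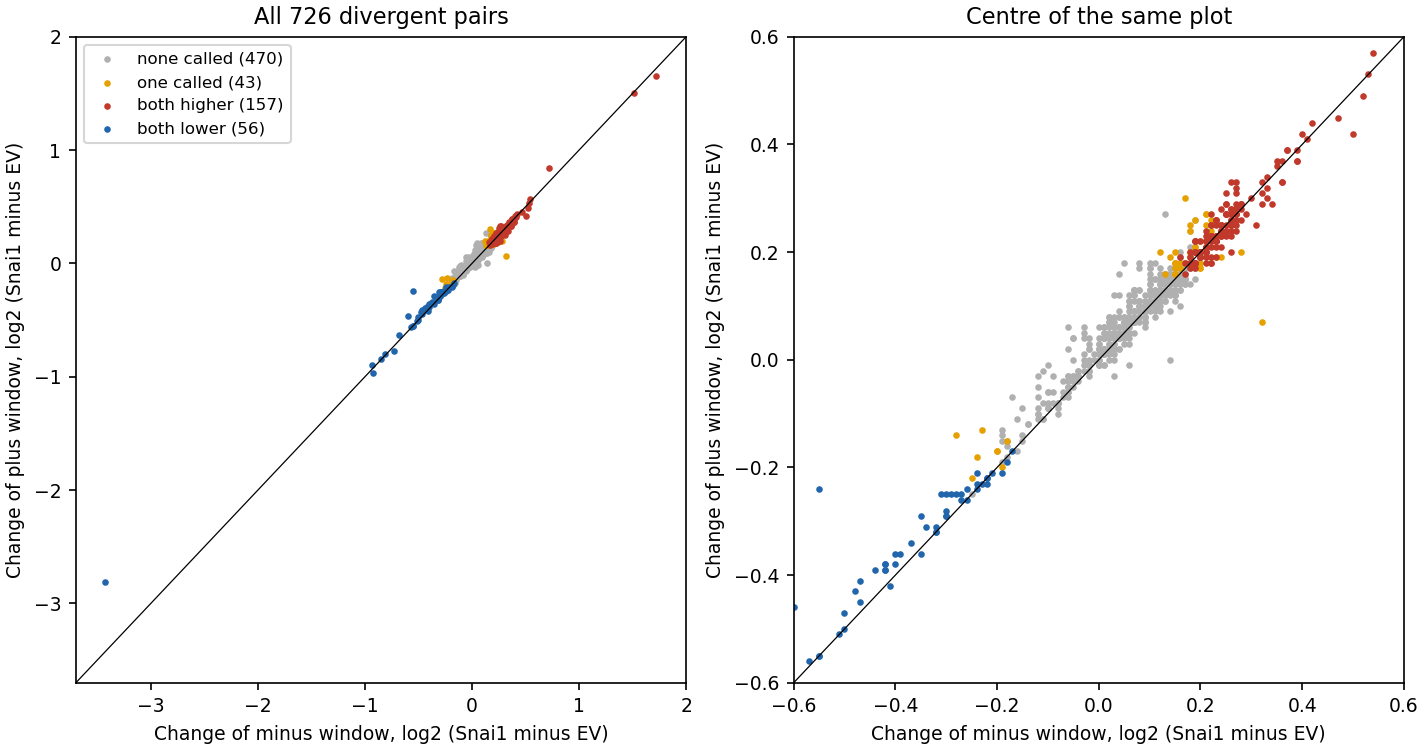
Change in accessibility (log2, MIG-Snai1 minus MIG-EV, the authors' group values) of the minus window (horizontal) and the plus window (vertical) for all 726 pairs, with the full range on the left and the centre on the right. Colours give the calls at an FDR of 0.05 and the line marks equal change; the points lie along it, with Ppp1r3d and Fam217b at -3.43 and -2.81 far from the others.

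The pair that rose most was H1f10, which encodes a linker histone, with the predicted non-coding gene Gm5577 on chromosome 6. In the authors' deposited table the H1f10 window went from 7.42 in MIG-EV to 9.14 in MIG-Snai1, a change of 1.72 ± 0.14 (SE, DiffBind FDR 1.72e-34), and the Gm5577 window from 7.80 to 9.45, a change of 1.65 ± 0.13 (FDR 2.61e-36). Next came Lacc1, an enzyme of macrophage metabolism, with Ccdc122 on chromosome 14. There the authors' deposited table gave 7.28 and 8.79 for the Lacc1 window, a change of 1.51 (FDR 1.73e-26), and 7.49 and 8.99 for the Ccdc122 window, a change of 1.50 (FDR 5.83e-28). Both pairs started from low levels, as 9.79 was the upper edge of the lowest of 5 equal classes of all windows by MIG-EV level.

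Smaller increases followed on chromosomes 15, 3, 4 and 16. Eef1d, a subunit of the exchange factor of translation elongation, rose by 0.72 from 8.64 in the authors' deposited table, and its partner Tigd5 by 0.84 from 9.45. The calcium-binding proteins S100a1 and S100a13 share a promoter region whose windows rose by 0.54 (from 10.09 to 10.63) and 0.57 (from 10.32 to 10.89) in the authors' deposited table. Tgs1, which methylates the caps of small nuclear RNAs, rose together with Tmem68, each by 0.53. Pmm2, an enzyme of N-glycosylation, rose by 0.49 and its partner Tmem186 by 0.52. The FDR of these 8 windows in the authors' deposited table lay between 6.39e-20 (Tigd5) and 1.65e-08 (Tgs1).

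Ppp1r3d, a glycogen-targeting subunit of protein phosphatase 1, and Fam217b fell most. In the authors' deposited table the Ppp1r3d window went from 8.23 to 4.80, a change of -3.43 ± 0.22 (SE, DiffBind FDR 8e-52), and the Fam217b window from 8.42 to 5.61, a change of -2.81 ± 0.18 (FDR 5.34e-53). They are the only divergent windows with a change of 2 log2 or more in size, a size reached by 0.643% of all windows. The starts lie 71 bp apart on chromosome 2, and the printed stretch between them holds 2 GC boxes.

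The other 5 pairs that fell most were all on chromosome 16. Atp6v1a, the catalytic subunit of the vacuolar proton pump, fell by 0.92 (11.71 to 10.79) and Naa50, an N-terminal acetyltransferase, by 0.97 (12.18 to 11.21) in the authors' deposited table. Dzip3, a ubiquitin ligase, fell by 0.93 and Cip2a, an inhibitor of protein phosphatase 2A, by 0.90. Slc35a5 fell by 0.85 and Atg3, which acts in the lipidation step of autophagy, by 0.84. Qtrt2, a subunit of the enzyme that puts queuine into transfer RNA, fell by 0.81 and Ccdc191 by 0.80. Pigp, needed for the first step of GPI anchor synthesis, fell by 0.73 and the ubiquitin ligase Ttc3 by 0.77. The largest FDR of these 10 windows in the authors' deposited table was 3.05e-18.

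**Figure D2:**
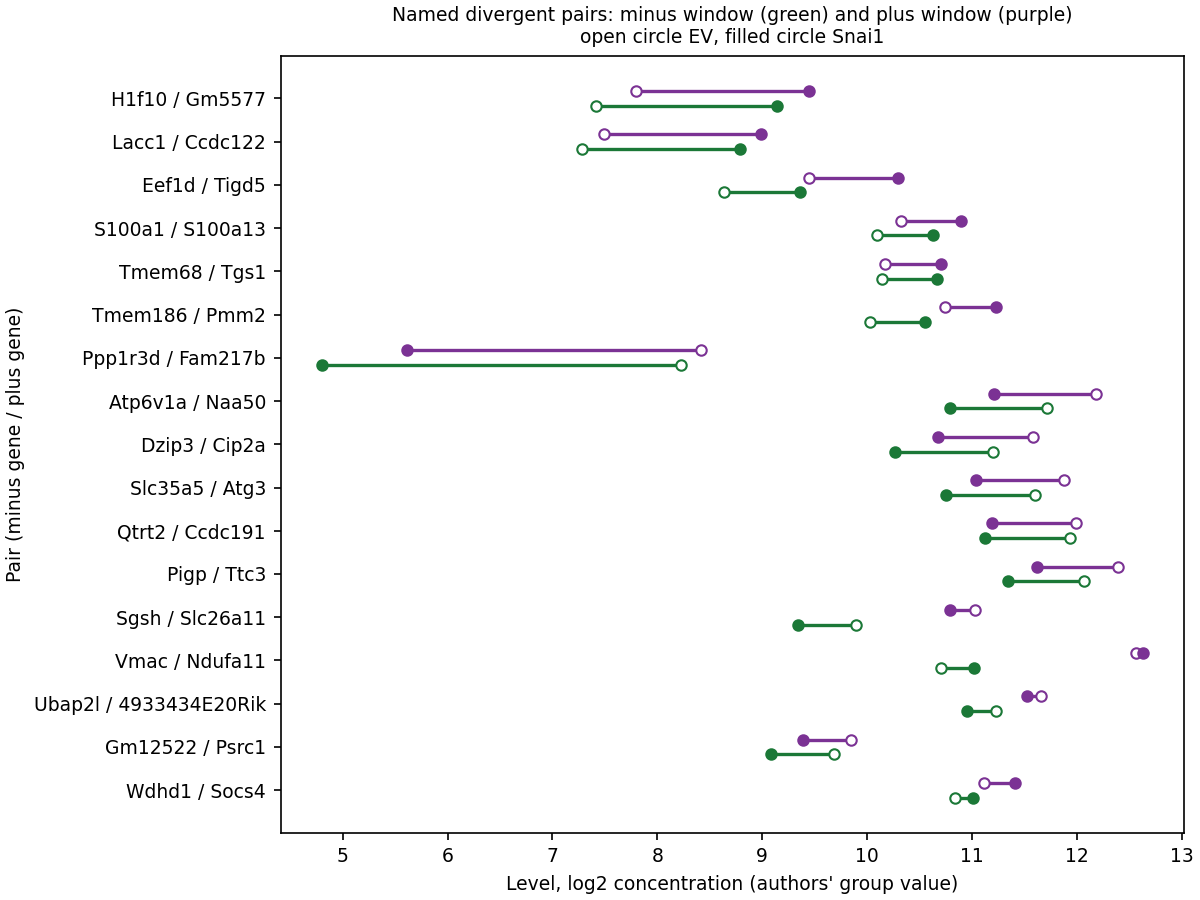
Level (log2 concentration, the authors' group values) of the minus window (green) and the plus window (purple) in MIG-EV (open circles) and MIG-Snai1 (filled circles) for the 12 pairs with the largest shared changes and the pairs with the largest gap. H1f10, Lacc1 and Ppp1r3d and their partners start below a level of 9, and the chromosome 16 pairs that fell start above 11.

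Most pairs that fell lay on a few chromosomes. Chromosomes 1, 4, 5, 12 and 16 were set apart from earlier results of these same data, as holding long stretches of promoter windows that move together. Only chromosome 16 was read by position here. Of the 56 pairs with both windows lower 50 were on the 5 chromosomes. Of all windows on these 5 chromosomes 25.7% were called lower, and of their divergent windows 26.5%. On chromosome 16, 26 of 27 pairs were called, where 82.4% of all its windows were called, 66.9% lower and 15.5% higher. Its 5 pairs between 4.96 and 15.6 Mb all rose, with a median change of 0.42 in the minus windows, while 21 of its 22 pairs between 18.2 and 94.4 Mb fell, with a median change of -0.445. Chromosome 1 had 13 of 42 pairs lower and 1 higher, chromosome 12 had 8 of 34 lower and 8 higher, chromosome 4 had 6 of 44 lower and 5 higher, and chromosome 5 had 2 of 51 lower and 3 higher. Whether the DNA copy number of these stretches differed between the cultures was not tested, so their values may not be read as accessibility alone. On the other chromosomes 135 of 528 pairs rose and 6 fell, where 21.9% of all windows were called higher and 5.16% lower.

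The 6 pairs that fell outside those chromosomes are named here after their values were seen. Beside Ppp1r3d and Fam217b they were Gm12522 with Psrc1, a spindle-associated protein (-0.60 and -0.46), Ppp4r1l-ps with the endosomal GTPase Rab22a (-0.42 and -0.38), and Sgsh with Slc26a11 (-0.55 and -0.24). The last were Rab3ip, an exchange factor for Rab8, with 4933412E12Rik (-0.37 and -0.34), and C330013E15Rik with Dazap2 (-0.31 and -0.25). In 4 of these 6 pairs a partner was a pseudogene or a predicted or uncharacterised transcript. Among all 726 pairs 97 held a long non-coding RNA and 16 were of another or unassigned kind. No trait of falling pairs is read from 6 pairs picked by their values.

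The windows of a pair moved unequally in a few cases. Besides Ppp1r3d and Fam217b, with a gap of 0.62, the widest gap was at Sgsh, a lysosomal sulfatase that degrades heparan sulfate, and the anion transporter Slc26a11. In the authors' deposited table the Sgsh window fell by 0.55 (9.89 to 9.34, DiffBind FDR 8.08e-07) and the Slc26a11 window around it by 0.24 (11.03 to 10.79, FDR 0.0177). At Vmac and Ndufa11, a subunit of respiratory complex I, the Vmac window rose by 0.32 (10.70 to 11.02, FDR 4.47e-05), while the Ndufa11 window had a change of 0.07 (12.56 to 12.63, FDR 0.585) in the authors' deposited table. The Vmac window held 27.5% of the Ndufa11 window's signal in MIG-EV and the Sgsh window 45.4% of that of Slc26a11, both below the median of 85.9%.

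The gap went the other way at Wdhd1, a replisome component, and Socs4, a suppressor of cytokine signalling. The authors' deposited table gave the Wdhd1 window a change of 0.17 (10.84 to 11.01, DiffBind FDR 0.0804) and the Socs4 window an increase of 0.30 (11.11 to 11.41, FDR 0.000478). At Ubap2l and 4933434E20Rik the authors' deposited table gave a fall of 0.28 (FDR 0.00395) beside a change of -0.14 (FDR 0.183). The gaps themselves could not be tested without values per library.

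Neighbouring windows that shared most of their sequence had smaller gaps than those that shared little or none. Where opposite-strand starts were over 1000 and up to 2000 bp apart and the windows overlapped in part, the median gap over 70 neighbours was 0.06 and r was 0.632. With no shared sequence, over 2000 and up to 5000 bp, the median gap over 151 divergent neighbours was 0.14, r was 0.139, and 4 were called in opposite directions. Same-strand neighbours over the same distances had a median gap of 0.165 (104 neighbours) and head-on neighbours 0.20 (16 neighbours). At over 30000 and up to 100000 bp the median gap was 0.14 for divergent, same-strand and head-on windows alike. Windows that overlap strongly in other orientations also moved together, as same-strand neighbours with starts within 1000 bp had a median gap of 0.005 (40 neighbours) and head-on ones 0.05 (123 neighbours). By shared length, the median gap was 0.02 for the wholly contained windows, 0.01 for the 12 pairs with over 1000 shared bases that were not contained, 0.04 for over 600 and up to 1000 shared bases (39 neighbours), 0.05 for over 300 and up to 600 (15 neighbours) and 0.135 for 1 to 300 (16 neighbours).

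**Figure D3:**
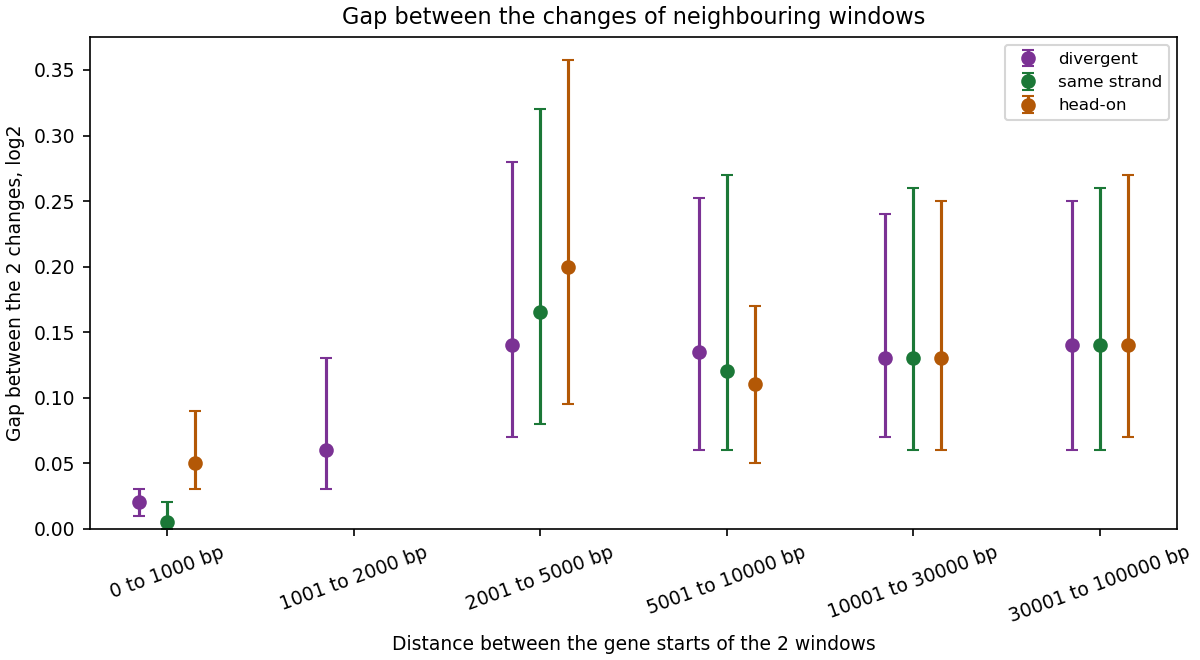
Size of the gap between the changes of neighbouring windows (log2), as median (point) and quartiles (bars), by the distance between their starts and their orientation. Divergent pairs within 1000 bp have a median gap of 0.02, and every orientation has medians between 0.11 and 0.20 once the starts are more than 2000 bp apart.

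Sgsm2 and Tsr1, with starts 1000 bp apart, had changes of 0.11 and 0.13, and just outside the rule, at 1014 bp, Bet1l and Ric8a both had 0.18 while Kmt2c and 4831440E17Rik both had -0.14. The median gap was 0.01 over the 30 pairs over 800 and up to 1000 bp apart and 0.03 over the 24 neighbours over 1000 and up to 1200 bp apart.

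The part of the plus window outside the minus window gives a reading with no shared sequence. It is 900 bp long in contained pairs, and its signal was taken as the difference of the linear levels. At the median start distance of 165 bp it lies mostly in the body of the minus gene. The further apart the starts, the more of it lies in the plus gene, as at Atp6v1a and Naa50 (790 bp apart). Because the deposited levels have 2 decimals, its change was used only in the 257 pairs where rounding could move it by at most 0.1 log2, which are pairs with a smaller shared part (median 74.7% of the plus signal). There the median change was 0.17 in the unshared part and 0.11 in the shared part. The unshared part changed more toward higher values in 181 pairs (70.4%), and beyond the rounding error in 136 pairs, against 47 pairs with the opposite order and 74 within it. Without chromosomes 1, 4, 5, 12 and 16 the medians were 0.20 and 0.14 over 186 pairs. The changes of both parts had the same sign in 216 of the 257 pairs, with r = 0.742 and rho = 0.524 across pairs, which share libraries and normalization.

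Grouping by the calls of the pair partly fixes the sign of the unshared change, because the unshared part belongs to the plus window that was called; these medians are a description. In the 54 such pairs with both windows higher the medians were 0.27 (unshared) and 0.25 (shared), in the 16 with both lower they were -0.31 and -0.49, and in the 162 with neither called 0.14 and 0.07. For single pairs the parts differed more. At Ppp1r3d and Fam217b the unshared part had a change of -1.01 beside -3.43 in the shared part, and at H1f10 and Gm5577 it had 1.39 beside 1.72. It was -0.03 for Sgsh and Slc26a11 and -0.04 for Vmac and Ndufa11, both near 0, whereas at Wdhd1 and Socs4 it was 0.80 beside 0.17. At Eef1d and Tigd5 the unshared part had 0.98 beside 0.72, and at Atp6v1a and Naa50 it had -1.11 beside -0.92.

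**Figure D4:**
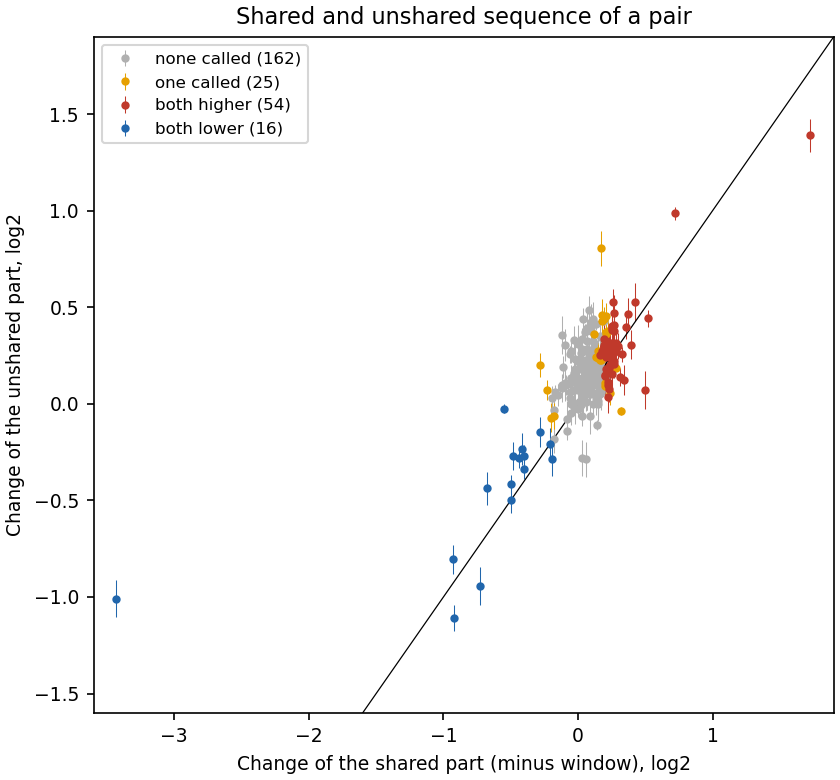
Change (log2) of the shared part (the minus window, horizontal) and of the unshared 900 bp of the plus window (vertical) in the 257 pairs where rounding moves the latter by at most 0.1; bars give the rounding bound and colours the calls of the pair. The line marks equal change, and 136 pairs lie above it and 47 below it beyond rounding.

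Divergent windows were more open than unpaired ones of the same width. The median level in MIG-EV was 11.37 for divergent plus windows against 10.89 for unpaired plus windows, and 11.08 against 10.42 for minus windows. Divergent windows made up 2.22% of the lowest level class of windows and 25.4% of the highest. The window of a divergent gene also covers the start of its partner. Of the divergent windows 24.0% were called higher (348) and 8.28% lower (120), against 18.9% and 10.7% of unpaired windows, with median changes of 0.11 and 0.08. Without chromosomes 1, 4, 5, 12 and 16 the shares were 28.3% higher and 1.42% lower (15 of 1054 windows) against 20.9% and 5.76% of 6636 unpaired windows. Since the windows of a pair share reads, these counts hold about as many separate measurements as pairs, and no test was made on them.

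Without the 5 chromosomes the shares were also compared within the level classes. The lowest class was not matched in level, with medians of 9.425 in 32 divergent and 8.84 in 1600 unpaired windows. Only 11 of these 32 divergent windows were called higher. In each of the 5 level classes a larger share of divergent than of unpaired windows was called higher, from 34.4% against 16.7% in the lowest class to 23.1% against 16.6% in the highest. A smaller share was called lower in each class, from 9.38% against 13.2% to 1.23% against 2.08%. From the lowest class to the highest, only 3, 2, 4, 2 and 4 divergent windows were called lower. These are too few to read an order in single classes. Over all chromosomes the order in the highest class was the other way, with 15.7% of divergent and 13.5% of unpaired windows called lower. The higher and lower balance rests on the centre of the table. With the median of all windows (0.08) subtracted and the windows of all chromosomes tested again, 34 pairs had both windows higher and 73 both lower, and divergent windows were called higher in 6.14% and lower in 10.6% against 7.39% and 14.3% of unpaired windows. The share of higher windows among the called divergent windows thus went from 74.4% to 36.8%, and among all called windows from 65.5% to 34.4%. The same test, still with 0.08 subtracted, was also read without the 5 chromosomes, where the median change of all windows was 0.10. This set was thus not centred. It held 25 pairs with both windows higher and 12 with both lower. There divergent windows were called higher in 6.45% and lower in 2.75% against 7.58% and 8.47% of unpaired windows, and higher calls were 70.1% of the called divergent windows and 49.1% of all called windows. No pair was called in opposite directions after the subtraction.

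**Figure D5:**
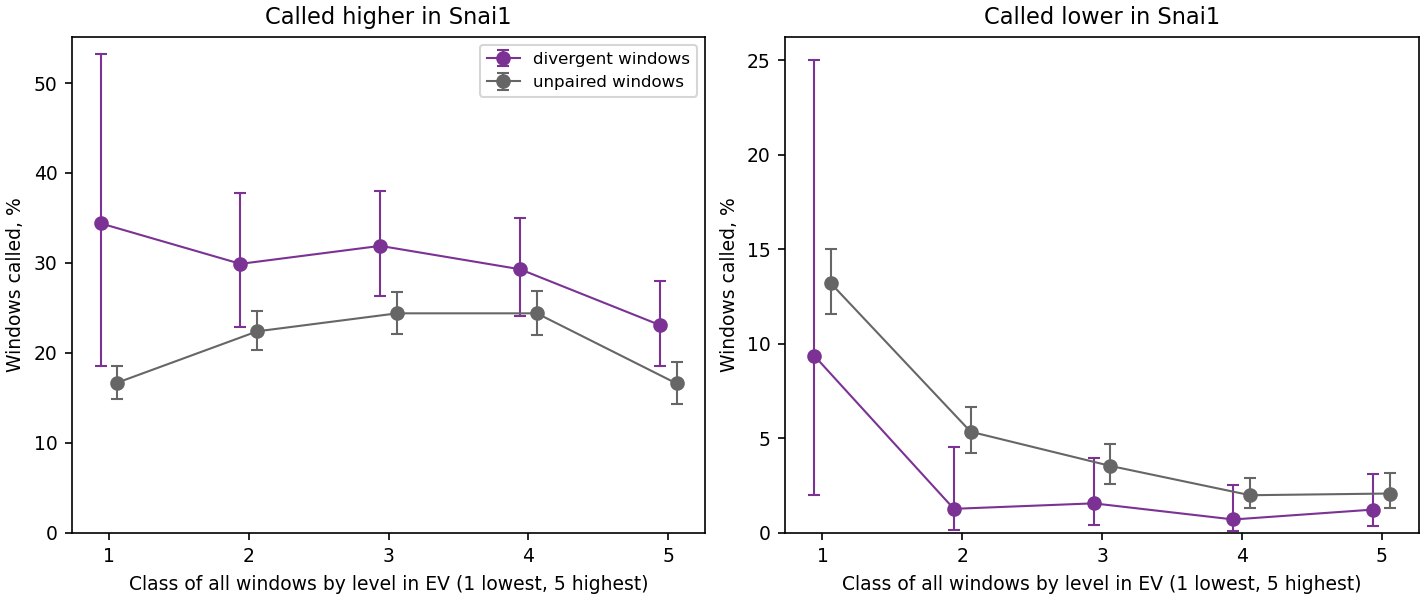
Share of windows (%) called higher (left) and lower (right) in MIG-Snai1 at an FDR of 0.05, by class of MIG-EV level, for divergent (purple) and unpaired (grey) windows without chromosomes 1, 4, 5, 12 and 16; bars are 95% exact binomial intervals, which treat windows as separate and cover counting error only. Divergent windows lie above unpaired ones on the left and below them on the right in all 5 classes. Each divergent point on the right rests on 2 to 4 called windows.

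A change of 0.5 log2 or more in size was found in 2.69% of divergent windows (39) and 6.98% of unpaired windows, where 6.38% of all windows reached it. The order differed between level classes, and few divergent windows stood in the lowest class, where such changes were most frequent. In that class the shares were 21.7% of divergent and 19.9% of unpaired windows, in the highest class 3.09% and 2.10%, and over the upper 4 classes together 2.07% and 3.15%. Of the 39 divergent windows 26 lay on chromosomes 1, 4, 5, 12 and 16, with 20 on chromosome 16. Without these chromosomes the shares were 1.23% of divergent and 5.38% of unpaired windows. In the lowest class they were then 31.2% and 17.8%, and in the highest class 0% (of 325 windows) and 0.396%. A change of 1 or more was found in 6 divergent windows, those of H1f10, Lacc1 and Ppp1r3d and their partners, out of 207 in the table (2.02% of all windows). All 6 stood in the lowest level class, where they were 13% of the 46 divergent windows, against 8.11% of unpaired windows of that class.

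Pairs with starts further apart had more open plus windows. Plus windows had a median MIG-EV level of 10.94 in the 220 pairs with starts up to 100 bp apart, 11.45 in the 308 pairs over 100 and up to 300 bp and 11.74 in the 198 pairs over 300 bp. Both windows were higher in 25%, 18.5% and 22.7% of these pairs and both lower in 7.73%, 8.77% and 6.06%. Pairs with a long non-coding RNA had both windows higher in 20.6% and lower in 11.3%, and pairs of coding genes in 21.7% and 7.01%.

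Genes of DNA repair and DNA replication at divergent promoters are read against all divergent windows, of which 24.0% were called higher and 8.28% lower, and against the 19.6% and 10.3% of all windows. Of 67 repair genes with a window 19 had a divergent one, of which 8 rose (42.1%), 1 fell and 10 were not called, with a median change of 0.18 beside 0.08 for all windows. They included Prkdc, the catalytic subunit of the DNA-dependent protein kinase (0.42, with its partner Mcm4 at 0.40), Fancd2 of the Fanconi anaemia pathway (0.42, with Emc3 at 0.50) and the abasic site endonuclease Apex1 (0.27, with Osgep at 0.27). Of 42 replication genes 10 had a divergent window, of which 6 rose and 0 fell (median 0.215), such as the helicase subunit Mcm4 and the origin recognition subunits Orc3 (0.41) and Orc1 (0.21). Of these 6 calls and the 9 of the repair genes, 4 and 3 lay on chromosomes 1, 4, 5, 12 or 16. Unpaired genes of the same lists rose in 18 of 48 (repair) and 7 of 32 (replication).

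The called shares of mitochondrial genes lay near those of all divergent windows. Of 95 genes of the mitochondrial ribosome and protein import 27 had a divergent window, of which 6 rose (22.2%), 1 fell and 20 were not called (median 0.09). Mrpl57 (0.37) and the import chaperone Timm10b (0.29) rose, and Mrpl40 on chromosome 16 fell (-0.26, with its partner Hira at -0.24). Of 83 respiratory chain genes 22 were divergent, with 4 higher (18.2%) and 0 lower (median 0.10), among them Atp5c1 of the ATP synthase (0.24), Uqcr10 of complex III (0.22) and Sdha of complex II (0.25). By comparison 14.1% of all genes with a window had a divergent one (1437 of 10194).

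The remaining housekeeping lists were small and differed in their share of calls. Among all divergent windows 24.0% were called higher and 8.28% lower. Of 16 divergent splicing genes 3 rose and 1 fell, with Snrpa at 0.20. Prpf38a, the partner of Orc1, had 0.22 and Prpf4 had -0.36, both on chromosome 4. Among 9 genes of aminoacyl-tRNA synthetases, which charge transfer RNAs, 4 rose, 3 fell and 2 were not called, including Rars2 at 0.41 (with Orc3) and Wars at -0.41 on chromosome 12. Of 8 divergent chaperone genes none rose (0) and 2 fell, Cct8 (-0.42) on chromosome 16 and Bag1 (-0.30) on chromosome 4. The proteasome had 6 divergent genes, 1 of them called, the immunoproteasome subunit Psmb9. The histone genes H2bc4 and H2ac6, whose starts lie 240 bp apart, rose by 0.39 and 0.37. No gene (0) of the lists of blood stem cell and progenitor regulators (25 with a window), of the Lsd1, CoREST and HDAC complex (23) or of epithelial junctions (10) had a divergent window. Among all genes with a window 14.1% had one, and nothing is read from lists this small.

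Of 17 textbook divergent pairs 10 met the rule in this table. In 4 of them both windows rose, where 21.6% of all 726 divergent pairs did. They were Mcm4 and Prkdc (0.40 and 0.42), Atm and Npat (0.26 and 0.25), Psmb9 and Tap1 (0.24 and 0.24), and Brca1 and Nbr1 (0.21 and 0.22). Atm and Brca1 act in the response to DNA breaks, and Tap1 moves peptides to the class I antigen presentation pathway that Psmb9 feeds. Mcm4 and Prkdc lie at 15.6 Mb on chromosome 16, in the stretch where all 5 pairs rose. The FDR of Brca1 and Nbr1 in the authors' deposited table was 0.0409 and 0.0453, close to the threshold. Both windows fell at Gart and Son (-0.32 and -0.32) and at Ranbp1 and Trmt2a (-0.24 and -0.23), both on chromosome 16. Neither window was called at Tsc2 and Nthl1 (0.17 and 0.16), Mrpl18 and Tcp1 (0.10 and 0.12), Mrps12 and Sars2 (0.09 and 0.08) or Emc8 and Cox4i1 (-0.12 and -0.11).

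The sequence of divergent promoters differed from that of unpaired ones in base composition and in the share with ETS or YY1 letters. RefSeq promoters of 300 bases, from 250 before to 50 after the start, were matched for 1177 divergent and 6645 unpaired windows. Their median GC content was 63.7% and 61.0%, and the median ratio of observed to expected CpG was 0.89 and 0.78, against 52.7% and 0.38 over 32851 promoters of the RefSeq table. The ETS letters CCGGAAG, read by a large family of activators, were found in 32.9% of divergent, 19.4% of unpaired and 8.86% of all promoters. The YY1 letters were found in 6.71%, 3.60% and 1.40%, the NRF1 letters in 3.31%, 2.39% and 0.971%, the GC box in 71.8%, 66.5% and 35.7%, and CCAAT in 42.1%, 39.1% and 37.4%. The TATA letters were less frequent, in 3.99%, 6.80% and 13.6%. With the lowest level class left out, divergent and unpaired promoters held the ETS letters in 33.0% and 22.0%, the YY1 letters in 6.82% and 4.05%, and the GC box in 71.8% and 71.7%. The promoters of a pair can overlap and hold the same match, and a YY1 match may overlap an ETS match.

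Matches also differed between pairs by their calls. ETS letters stood in 42.8% of the 250 promoters of pairs that rose, 30.0% of the 763 in pairs with no call and 24.7% of the 93 in pairs that fell. Among unpaired windows they stood in 22.2% of promoters called higher and 13.1% of those called lower. Of the 56 pairs that fell 50 lay on chromosomes 1, 4, 5, 12 and 16, and the ETS shares were not computed without these chromosomes. In the same 3 sets of pairs (rose, no call, fell) the YY1 letters stood in 3.2%, 7.86% and 7.53%. The GC box stood in 66.8%, 73.1% and 81.7%. The E-box CAGGTG was found in 13.3% of divergent, 16.4% of unpaired and 20.2% of all promoters, and in 12.4% of promoters of pairs that rose and 15.1% of those of pairs that fell. Without chromosomes 1, 4, 5, 12 and 16, divergent windows with an E-box were called lower in 1.77% (2 of 113). For divergent windows without an E-box the share was 1.49% (11 of 738). Of unpaired windows, also without these chromosomes, 7.91% with an E-box (65 of 822) and 4.78% without one (196 of 4102) were called lower. The 2 divergent windows are too few to compare these shares. Over the 440 pairs whose stretch between the starts could be read (median 100.5 bases), an E-box stood in 11 (2.5%), as in the Qtrt2 and Psmb9 sequences printed above.

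As a check of the cell type, 7 of 7 blood progenitor marker genes had a window, at levels of 10.22 to 11.57 in MIG-EV, and 2 of 8 fibroblast marker genes had one, at 9.15 and 10.14.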

How the data were processed

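ATAC-seq libraries of HPC7 cells (3 per group) were processed by the submitters with fastp, Bowtie2, Picard and DiffBind on mm10, per the submitters' processing notes; for their versions and the normalization, the sources used here give nothing. The deposited table held 10274 rows (3 repeats), with the authors' log2 concentration per group, fold, p-value and FDR (adjusted p-value) for MIG-EV against MIG-Snai1. It held 0 columns of values per library, so depth per library is unknown and no count test could be run. Starts and strands were derived from the window widths, and genes were matched to RefSeq (GRCm38.p6). Changes are MIG-Snai1 minus MIG-EV, and standard errors were worked back from the authors' p-values with the normal distribution. The windows tested again after subtraction used these errors, and windows with small changes took the median error of windows of similar level. Those are not DiffBind tests. Pairs, gaps, unshared signal, motif matches and counts were computed with Python 3.11.15, pandas 2.3.3, numpy 2.4.6 and scipy 1.17.1. The pair search, the calls of minus windows and the rounding bound of the unshared change were tested on simulated data.

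The named pairs are the 6 with the largest mean increase and the 6 with the largest mean decrease among pairs called the same way, those called in opposite directions (0), the 6 with the largest gap, textbook pairs, and up to 3 called genes per list, with predicted genes left out unless the partner is a named gene. Members and lists were chosen with earlier results of these data known.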

Additional observations from a re-analysis of the deposited data

How the results depend on the processing

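Alternatives were the distance limit, 1 pair per window, the FDR limit, a level filter, a single width, RefSeq-matched starts, centring and leaving out chromosomes; the analyses without chromosome 16 alone and with windows tested again after centring were chosen after seeing the data. Of 108 alternative values 84 stayed within the limits set for a change, and no single value changed sign. The limits were the 95% interval of the main value for medians and shares, and a fixed ratio for counts of pairs. Some of the 84 could not move. The FDR limit does not enter median changes, gaps or levels, and subtracting the median without a new test leaves calls, gaps and levels as they were. The balance of higher against lower pairs did turn when windows were tested again after centring (157 higher and 56 lower before, 34 and 73 after), and so did the order of divergent against unpaired windows in the share called higher (24.0% against 18.9% before, 6.14% against 7.39% after). Pairs called in opposite directions stayed at 0 in all of these.

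Without chromosomes 1, 4, 5, 12 and 16, 141 pairs were called the same way and 6 had both windows lower, the share of divergent windows called was 29.7%, their median level 11.16, and median changes were 0.13 (divergent), 0.10 (unpaired) and 0.20 (unshared part). Without chromosome 16, 35 pairs had both windows lower and 29.8% of divergent windows were called. At an FDR of 0.01, 119 pairs were called the same way, 78 had both windows higher and 18.8% of divergent windows were called. With the median of all windows subtracted, median changes were 0.03 (divergent), 0 (unpaired) and 0.09 (unshared part). Tested again after that, 107 pairs were called the same way, 34 had both windows higher and 16.7% of divergent windows were called. The median level was 11.11 with starts up to 300 bp apart, 11.37 in plus and 11.08 in minus windows.

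No paired analysis was possible because the deposited table gives group values and no value per library. For the same reason leaving out each library in turn was not run. Depth per library is unknown, and low levels carry larger errors, such as 0.22 for Ppp1r3d beside 0.07 for Naa50.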
